A study of Arabidopsis thaliana with 8 samples.

Results

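Plant defensins are small, cysteine-rich secreted peptides that act against fungi. PDF1.2 is the usual leaf marker of the branch of jasmonate signalling that works together with ethylene, in which the transcription factors ERF1 and ORA59 switch it on. The MYC2 branch of jasmonate signalling and salicylate both oppose its expression. PDF1.2b is a close relative of PDF1.2, and LCR68, also named PDF2.3, belongs to another subfamily of the same peptides. The 3 genes PDF1.2 (AT5G44420), PDF1.2b (AT2G26020) and LCR68 (AT2G02130) are described here out of 13286 genes that have a probe set of their own in the annotation used. Each has 1 probe set, a group of short oligonucleotides on the Affymetrix ATH1 array, which for PDF1.2b may also read related transcripts.

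The arrays measured RNA from rosette leaves of Arabidopsis thaliana plants that were 3 weeks old, grown on soil in continuous light, kept for 8 h in darkness and then lit again for 2 h before harvest. The design had 4 lines of the Col background and 2 arrays per line. The flu tAPX line carried the T-DNA insertion SAIL_136_E05 in FLU together with the thylakoid ascorbate peroxidase overexpressor of line 14-2, the flu line carried the insertion alone, the tAPX line carried the overexpressor alone and WT carried neither. FLU restrains the synthesis of chlorophyll precursors, so that flu plants make singlet oxygen when light returns, and the thylakoid ascorbate peroxidase removes hydrogen peroxide at the photosynthetic membrane. The overexpressor is 1 transgenic line, and the sources used here do not name its promoter. No array was taken in the dark or before the light returned.

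The 3 genes were chosen by their signals on these 8 arrays, namely for responses to flu and to tAPX described as opposite. Set against WT alone, PDF1.2 and PDF1.2b were higher in both flu and tAPX, and the contrast lies in flu tAPX, which was far below tAPX. Their differences between the lines are therefore given as a description with standard errors and without a test. The experiment was done 6 times with at least 10 plants per line, and the RNA of 3 experiments was combined for each array, so the spread between the arrays of a line is that between pools. Some free-text sample descriptions name another accession or line than the titles do, or another harvest time. The titles were followed for accession and line. They give no harvest time, and 2 h of light was taken for all 8 arrays.

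The median signal per array ranged between 153 and 166, and replicate arrays had correlations between 0.938 and 0.981 (Pearson, log2 signals across probe sets, which are not independent). TAPX, the transgene, had signals of 22703 and 23222 in flu tAPX and of 22960 and 22043 in tAPX. It had 1656 and 1729 in flu and 2558 and 3115 in WT. These signals fit the labels of all 8 arrays as to the overexpressor and do not check them as to flu. FLU has no probe set named in the annotation used and is not analysed here. Of the markers chosen for cell types, RCA of mesophyll (Rubisco activase) had signals between 24891 and 31737, and FMA, a transcription factor of the guard cell lineage, had signals between 238 and 380. The other mesophyll and guard cell markers and those of epidermis, phloem, flower, seed and root are not analysed here. In whole leaves, fewer cells of a type and less RNA per cell cannot be told apart.

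PDF1.2 is read by a probe set of type _at, designed for 1 transcript. Its signal was 694 and 647 in flu tAPX, 904 and 762 in flu, 1538 and 2065 in tAPX, and 650.4 and 336 in WT (replicates 1 and 2 of each line). Both tAPX arrays lay above the other 6 arrays and both flu arrays lay above both WT arrays, while WT replicate 1 lay between the flu tAPX arrays. The line means were 670.3 ± 33.7 in flu tAPX, 833 ± 101 in flu, 1801 ± 373 in tAPX and 493 ± 223 in WT (SD, n = 2 each). In the order of these means, tAPX stood above flu and flu above flu tAPX without overlap between arrays, and flu tAPX and WT overlapped. On each array PDF1.2 was brighter than between 64.2% and 92.5% of all probe sets for transcripts.

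PDF1.2b is read by a probe set of type _x_at, a suffix for sets in which some oligonucleotides also match other sequences. Its signal was 1105 and 486 in flu tAPX, 908 and 753 in flu, 1664 and 2828 in tAPX, and 531 and 235 in WT. The tAPX arrays were again the highest of the 8 and WT replicate 2 the lowest, and the flu tAPX arrays lay on both sides of the flu arrays. Line means were 795 ± 438 in flu tAPX, 831 ± 109.9 in flu, 2246 ± 823 in tAPX and 383 ± 209 in WT (SD, n = 2 each). Only the step between tAPX and the next line was free of overlap in this order, since flu tAPX overlapped with both flu and WT.

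The probe sets of PDF1.2 and PDF1.2b may read partly the same transcripts. PDF1.2c is the annotated gene next to PDF1.2 on chromosome 5, and PDF1.3 is the one next to PDF1.2b on chromosome 2. PDF1.2c, PDF1.3 and PDF1.5 have no probe set named in the annotation and are not analysed here, and how much of either signal comes from them was not tested. Over the 8 arrays, log2 values of PDF1.2 and PDF1.2b had a Pearson correlation of 0.957, against 0.716 for PDF1.2 with LCR68 and 0.703 for PDF1.2b with LCR68. These correlations describe 8 arrays that share the same scaling and 4 lines.

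LCR68, like PDF1.2, is read by a probe set of type _at. Its signal was 809.5 and 337 in flu tAPX, 1144 and 462 in flu, 1687 and 2131 in tAPX, and 1403 and 554 in WT. The tAPX arrays were above all others, and in each of flu tAPX, flu and WT replicate 1 was more than double replicate 2, so that these 3 lines overlapped with each other. The means were 573 ± 334 in flu tAPX, 803 ± 482 in flu, 1909 ± 314 in tAPX and 978 ± 599.8 in WT (SD, n = 2 each). Unlike PDF1.2 and PDF1.2b, LCR68 had its second highest mean in WT.

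**Figure D1:**
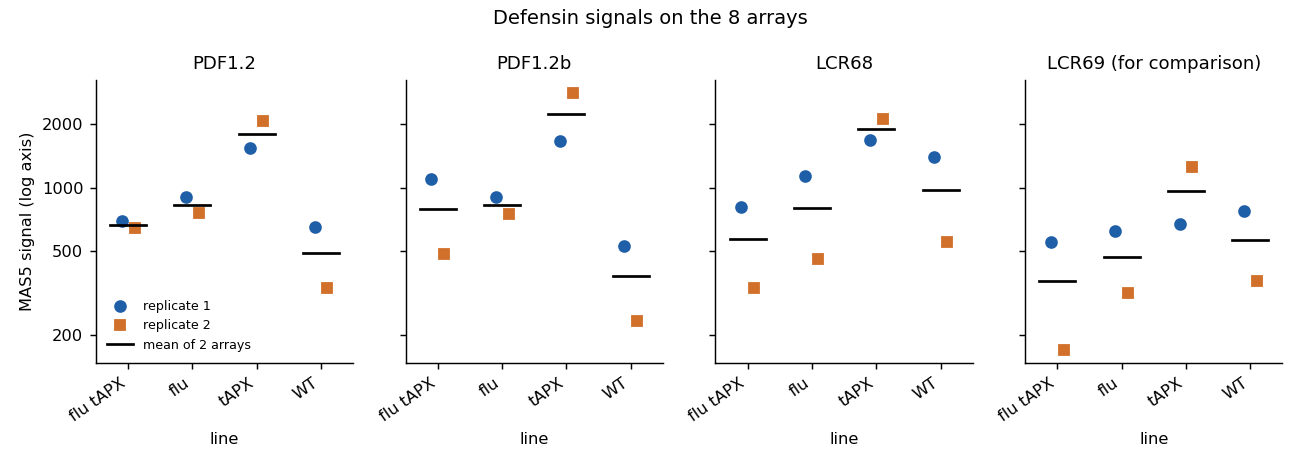
MAS5 signal (log axis) of PDF1.2, PDF1.2b, LCR68 and, for comparison, LCR69 in flu tAPX, flu, tAPX and WT, with a circle for replicate 1, a square for replicate 2 and a bar for the mean of 2 arrays. For PDF1.2, PDF1.2b and LCR68 both tAPX arrays lie above the other 6 arrays, and for LCR68 and LCR69 replicate 1 lies above replicate 2 in flu tAPX, flu and WT.

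The extra peroxidase in plants with FLU, that is tAPX against WT, went with higher signals of all 3 genes. On the scale of log2(signal + 16), the difference was 1.89 ± 0.28 for PDF1.2, 2.56 ± 0.43 for PDF1.2b and 1.09 ± 0.52 for LCR68 (tAPX minus WT, ± SE). Among 14947 probe sets that passed a filter on dim signals, PDF1.2b had the second highest difference in this comparison and PDF1.2 the fourth (ranks 2 and 4), and LCR68 had rank 138. The arrays of tAPX and WT did not overlap for any of the 3, with tAPX higher, which held for 16.7% of all tested probe sets (26.7% were lower without overlap). Both tAPX arrays lay above the other 6 for 9.45% of the tested probe sets. These counts belong to the choice of the genes and carry no support of their own.

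The size of these differences varied with the array left out. Without WT replicate 1 the difference of PDF1.2 was 2.35 and without WT replicate 2 it was 1.43. For PDF1.2b the same omissions gave 3.12 and 2.00, and for LCR68 1.75 and 0.43. Without tAPX replicate 1 or 2 the difference was 2.104 or 1.68 for PDF1.2, 2.94 or 2.18 for PDF1.2b and 1.25 or 0.92 for LCR68. All of these values were above 0.

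Without the transgene, PDF1.2 and PDF1.2b were higher in flu than in WT, and LCR68 had no steady sign. In flu against WT the difference was 0.81 ± 0.28 for PDF1.2, 1.18 ± 0.43 for PDF1.2b and -0.27 ± 0.52 for LCR68 (flu minus WT, log2 scale, ± SE). PDF1.2 and PDF1.2b were higher in flu with no overlap between arrays, as were 22.0% of the tested probe sets (42.7% were lower without overlap), while the LCR68 arrays of flu and WT overlapped. LCR68 changed sign when a single array was omitted, to 0.37 without flu replicate 2 and 0.39 without WT replicate 1. PDF1.2 stood at 1.27 without WT replicate 1 and at 0.34 without WT replicate 2, and PDF1.2b at 1.75 and 0.62. Whether the response of LCR68 differs from that of the other genes was not tested.

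In plants that carried the transgene the response to flu was downward for all 3. In flu tAPX against tAPX the difference was -1.39 ± 0.28 for PDF1.2, -1.54 ± 0.43 for PDF1.2b and -1.83 ± 0.52 for LCR68 (flu tAPX minus tAPX, log2 scale, ± SE). Arrays did not overlap for any of the 3, with flu tAPX lower, which was so for 41.1% of the tested probe sets (27.0% were higher without overlap). With 1 array left out, the difference ranged between -1.60 and -1.18 for PDF1.2, between -2.12 and -0.96 for PDF1.2b and between -2.44 and -1.21 for LCR68. The values nearest to 0 of PDF1.2b and LCR68 were those without flu tAPX replicate 2. Poly-A scaling, which uses the spiked control RNAs, gave -2.48 for LCR68. It also moved the median of all tested probe sets in this comparison from -0.16 to -0.79. A pattern of flu above WT together with flu tAPX below tAPX, without overlap in either, was shared by PDF1.2, PDF1.2b and 0.495% of the tested probe sets. This share belongs to the choice of the genes and carries no support of its own.

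Within flu plants the differences with the transgene were no larger than about 1 SE. In flu tAPX against flu the difference was -0.30 ± 0.28 for PDF1.2, -0.17 ± 0.43 for PDF1.2b and -0.47 ± 0.52 for LCR68 (flu tAPX minus flu, log2 scale, ± SE). The PDF1.2 arrays of flu tAPX lay below those of flu, as did 13.1% of the tested probe sets (16.4% lay above), and the arrays of PDF1.2b and LCR68 overlapped. The PDF1.2b difference was -0.75 without flu tAPX replicate 1 and 0.41 without flu tAPX replicate 2. LCR68 stood at -1.08 without flu tAPX replicate 1 and -1.10 without flu replicate 2, and turned to 0.15 without flu tAPX replicate 2 and to 0.17 without flu replicate 1. With poly-A scaling the differences were -0.84 for PDF1.2, -0.70 for PDF1.2b and -0.996 for LCR68. This scaling moved the median of all tested probe sets in this comparison from 0.00 to -0.51. Neither a small nor a larger difference is settled by these arrays.

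The interaction, which is the response to flu with the transgene minus that without it, was -2.20 ± 0.40 for PDF1.2, -2.73 ± 0.61 for PDF1.2b and -1.55 ± 0.74 for LCR68 (log2 scale, ± SE). PDF1.2b had the third lowest interaction of the 14947 tested probe sets (rank 3), PDF1.2 had rank 25 and LCR68 rank 186 from the lowest. These ranks belong to the choice of the genes and carry no support of their own. No probe set of the array passed the test of the interaction in limma (0.00% called, lowest adjusted p = 0.719). An unadjusted p under 0.05 was found for 1031 of the 14947, where a share of about 0.05 would fall with no differences. Over the omissions of single arrays the interaction ranged between -2.66 and -1.73 for PDF1.2, between -3.31 and -2.15 for PDF1.2b and between -2.21 and -0.90 for LCR68.

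**Figure D2:**
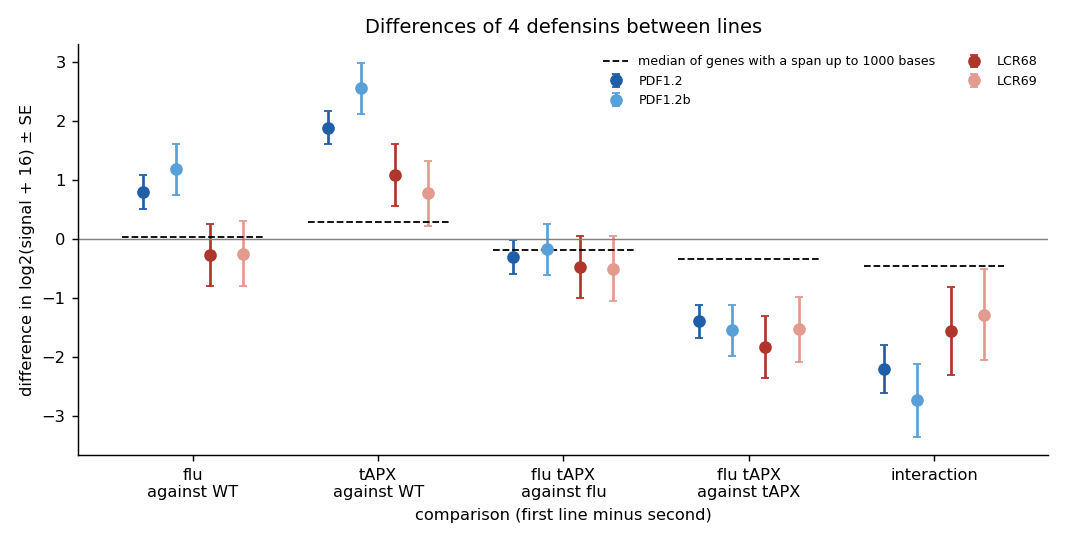
Difference in log2(signal + 16) with its SE for 4 defensins in the 4 comparisons of lines and in the interaction, with a dashed line at the median of 477 genes with an annotated span up to 1000 bases. PDF1.2 and PDF1.2b are above 0 and LCR68 and LCR69 below 0 in flu against WT, and all 4 are below 0 in flu tAPX against tAPX.

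The arrays of a line differed more for all 3 genes than for most transcripts, and LCR68 had the largest spread of the 3. The within-line SD of log2 values, over the 4 lines, was 0.37 for PDF1.2, 0.64 for PDF1.2b and 0.79 for LCR68, which was larger than that of 74.6%, 93.0% and 96.8% of the tested probe sets in this order. For LCR68, replicate 1 minus replicate 2 was 1.23 in flu tAPX, 1.28 in flu, -0.33 in tAPX and 1.31 in WT. For PDF1.2b these differences were 1.16 in flu tAPX, 0.27 in flu, -0.76 in tAPX and 1.12 in WT. For PDF1.2 they were 0.10 in flu tAPX, 0.24 in flu, -0.42 in tAPX and 0.92 in WT. All 3 genes thus had replicate 1 above replicate 2 in flu tAPX, flu and WT and the reverse in tAPX.

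**Figure D3:**
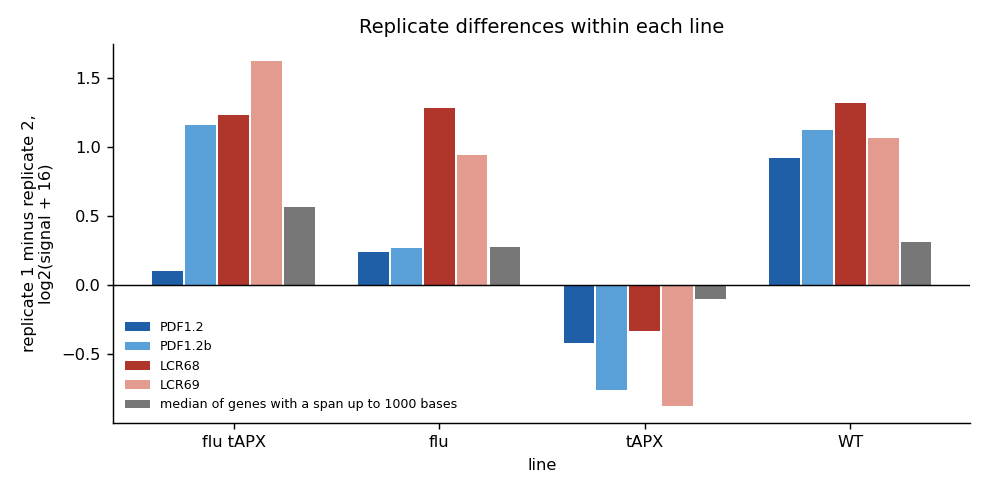
Replicate 1 minus replicate 2 in log2(signal + 16) within flu tAPX, flu, tAPX and WT for PDF1.2, PDF1.2b, LCR68 and LCR69, with the median of 477 genes with an annotated span up to 1000 bases in grey. The bars are above 0 in flu tAPX, flu and WT and below 0 in tAPX for all 4 genes and for the median of the short genes.

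Defensin genes are short, and the shift of signals between these arrays varied with the annotated span of a gene. The annotated span was 671 bases for PDF1.2, 683 for PDF1.2b and 810 for LCR68 in the TAIR10.1 annotation, introns included. Among the 477 tested genes with a span up to 1000 bases, the 3 defensins included, the median of replicate 1 minus replicate 2 was 0.56 in flu tAPX, 0.28 in flu, -0.10 in tAPX and 0.31 in WT. The median over all tested probe sets stood between -0.09 and 0.00 in the 4 lines. The median deviation of the short genes from their mean over the 8 arrays was -0.32 in flu tAPX replicate 2 and -0.22 in WT replicate 2, and 0.18 and 0.26 on the tAPX arrays.

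**Figure D4:**
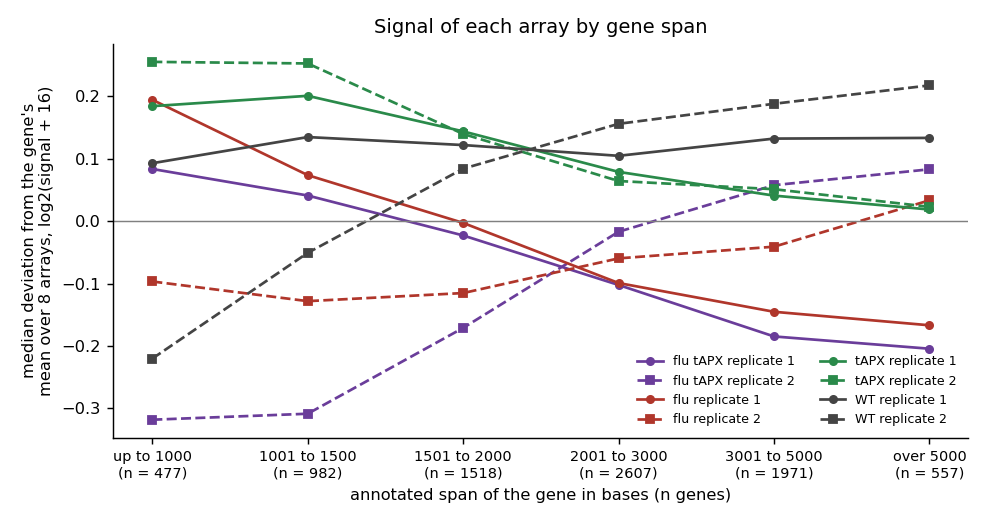
Median deviation of log2(signal + 16) from each gene's mean over the 8 arrays, by class of annotated gene span, with 1 line for each array of flu tAPX, flu, tAPX and WT (solid for replicate 1, dashed for replicate 2). In the class up to 1000 bases, the arrays spread between -0.32 (flu tAPX replicate 2) and 0.26 (tAPX replicate 2).

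The same short genes had a median difference of 0.30 in tAPX against WT, 0.04 in flu against WT, -0.33 in flu tAPX against tAPX, -0.18 in flu tAPX against flu and -0.45 in the interaction. The medians over all tested probe sets were -0.06, -0.20, -0.16, 0.00 and 0.06 for these comparisons in turn. Relative to the short genes, tAPX against WT was 1.59 for PDF1.2, 2.26 for PDF1.2b and 0.79 for LCR68. In tAPX against WT no short gene lay above PDF1.2b, 2 lay above PDF1.2 and 35 above LCR68. Both tAPX arrays exceeded the other 6 for 22.0% of the short genes. Relative to the short genes the interaction was -1.75 for PDF1.2, -2.28 for PDF1.2b and -1.11 for LCR68. The part of the shift of short genes in these values was not tested beyond this subtraction, which was added after the data were seen.

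RNA quality was read from control probe sets at the 3' and 5' ends of GAPDH, ubiquitin and actin transcripts. The log2 ratio of 3' over 5' signal for GAPDH was -0.02 and -0.26 in flu tAPX, 0.29 and -0.12 in flu, 0.38 and 0.33 in tAPX, and 0.57 and 0.37 in WT. For ubiquitin it lay between 0.87 and 1.16 in flu tAPX and flu, against 1.31 to 1.56 in tAPX and WT. Both ratios were lower in the lines with flu. For actin it lay between 3.83 and 4.17 in flu tAPX and flu and between 3.16 and 4.32 in tAPX and WT, with overlap. For GAPDH, replicate 1 had the higher ratio in each of the 4 lines. Their part in the defensin values was not tested.

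The remaining defensins were read at low level, with 1 exception. The annotation holds a probe set for 10 further defensin or defensin-like genes, of which 9 failed the filter on dim signals and had signals between 2.89 and 133 (LCR24, LCR59, LCR66, LCR67, LCR72, LCR80, PDF1.4, PDF2.1 and PDF2.5). LCR67, also named PDF1.1 and of the same subfamily as PDF1.2, had signals between 2.89 and 13.4. PDF1.4, the brightest of the 9, had means of 84.8 ± 5.06 in flu tAPX, 84.9 ± 68.3 in flu, 31.2 ± 13.4 in tAPX and 62.3 ± 14.5 in WT (SD, n = 2 each), and the arrays of flu and tAPX overlapped (36.6 in flu replicate 2 and 40.7 in tAPX replicate 2). PDF1.2, PDF1.2b and LCR68 passed the filter on all 8 arrays.

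LCR69, also named PDF2.2, is the exception. It lies on chromosome 2 with 3 annotated genes between it and LCR68, and PDF2.1 is the annotated gene next to LCR68. LCR69 signals were 557 and 170.4 in flu tAPX, 622 and 316 in flu, 678 and 1254 in tAPX, and 775 and 361 in WT. Both tAPX arrays lay above those of flu tAPX and flu, the other pairs of lines overlapped, and the replicates ran in the same direction as for LCR68, with 1.62 in flu tAPX, 0.94 in flu, -0.87 in tAPX and 1.07 in WT (replicate 1 minus replicate 2, log2 scale). Log2 values of LCR69 and LCR68 had a Pearson correlation of 0.963 over the 8 arrays.

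LCR69 did not pass the limma test in any comparison. In flu tAPX against tAPX its difference was -1.52 ± 0.55 (adjusted p = 0.0562 in limma), and 33.5% of the tested probe sets passed there. The call appeared in limma with a pseudocount of 64 (-1.37, adjusted p = 0.0499) or with the replicate number as a block (adjusted p = 0.0211). It also appeared with poly-A scaling (-2.17, adjusted p = 0.000947). That scaling called 8850 of 14947 probe sets in this comparison, 14.3% of them as higher, with a median of -0.79 over all tested. Without flu tAPX replicate 1 the LCR69 difference was -2.33, and without replicate 2 it was -0.71. In tAPX against WT its difference was 0.78 ± 0.55 (adjusted p = 0.980 in limma), in flu against WT -0.25 ± 0.55 (adjusted p = 0.782) and in flu tAPX against flu -0.50 ± 0.55 (adjusted p = 0.916). The 2 neighbouring defensins thus had the same signs in all 4 comparisons of lines, with errors as large as 0.52 to 0.55.

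Genes whose profile over the 8 arrays was most like that of a defensin were taken among 4734 genes with a log2 range of at least 1. For PDF1.2 they were PDF1.2b (r = 0.957), AT5G19030 (0.956), AT1G54120 (0.901), AT2G27330 (0.880) and AT2G02510 (0.869). For PDF1.2b they were PDF1.2 (0.957), AT5G19030 (0.919), AT1G06830 (0.919), AT1G54120 (0.904) and AT1G47400 (0.901). The annotation used gives no symbol for the genes named by locus. AT1G54120, with a span of 626 bases, had signals between 58.8 and 241 and differed by 1.37 in tAPX against WT and by -0.63 in flu tAPX against tAPX (log2 scale). AT1G47400, with a span of 779 bases, differed by 1.54 and -1.32 in the same comparisons.

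LCR68 had more genes with a like profile than PDF1.2 or PDF1.2b. A correlation over 0.9 was found for 218 of the 4734 genes with LCR68, against 5 with PDF1.2b and 3 with PDF1.2. LCR69 (r = 0.963) is among the 218. The closest were AT4G30650 (r = 0.993), AT4G22000 (0.986), AT2G28430 (0.986), AT2G27775 (0.984) and AT5G47550 (0.984). AT4G30650 had signals between 148 and 1024 and differed by 1.22 in tAPX against WT, -0.31 in flu against WT and -1.94 in flu tAPX against tAPX, close to the values of LCR68. The genes over 0.9 had a median annotated span of 1341 bases, against 2162 bases for all genes compared. Short genes were more like all 3 defensins than genes at large were. Across tested genes of a span up to 1000 bases the median correlation was 0.31 with PDF1.2, 0.32 with PDF1.2b and 0.46 with LCR68, against 0.00, -0.05 and 0.14 over all genes with a span.

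**Figure D5:**
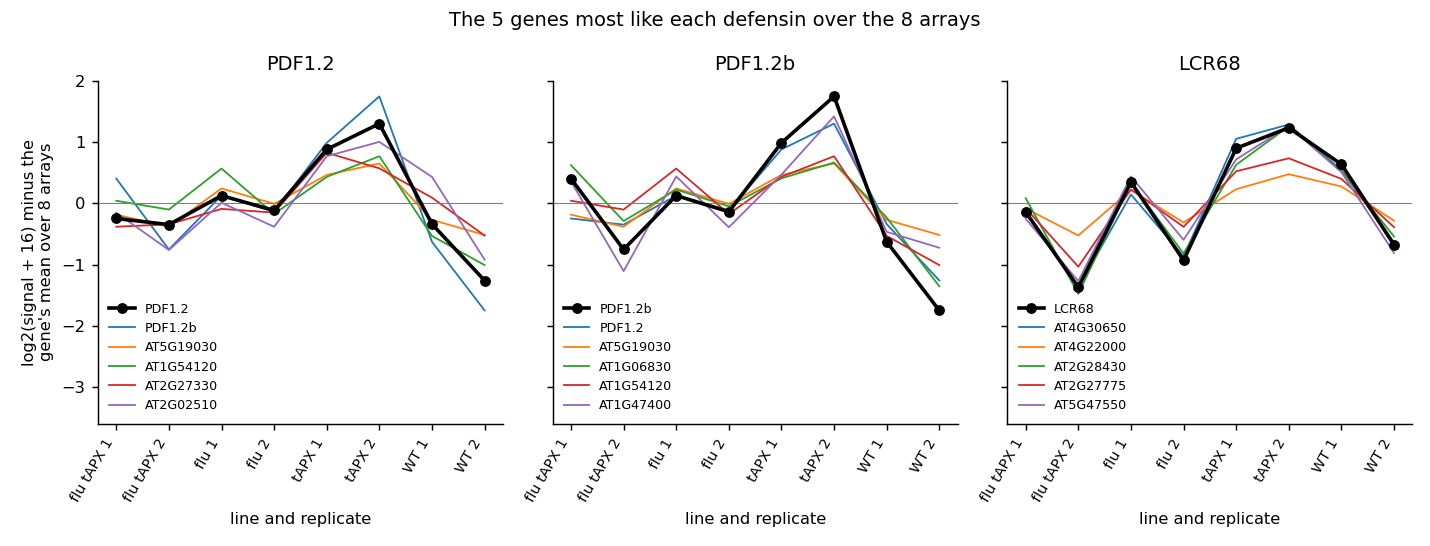
Log2(signal + 16) minus the gene's mean over the 8 arrays, for PDF1.2, PDF1.2b and LCR68 (black) and the 5 genes most like each (coloured), by line and replicate from flu tAPX to WT. The LCR68 panel shows replicate 2 below replicate 1 in flu tAPX, flu and WT for LCR68 and its 5 genes, with correlations of 0.984 to 0.993.

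Genes known to control PDF1.2 or to act beside it were few in the annotation, and their calls are set against the shares of all tested probe sets. In flu against WT 23.9% passed, 11.4% as higher and 12.5% as lower, and in flu tAPX against tAPX 33.5% passed, 15.0% as higher and 18.5% as lower. In tAPX against WT and in flu tAPX against flu, TAPX alone passed (0.00669%), and no gene of the lists did. Of 14947 tested probe sets, 578 and 826 had an unadjusted p under 0.05 in these comparisons (limma).

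On the side of jasmonate synthesis and signalling, 2 of 23 listed genes had a probe set of their own, and the others are not analysed here. Both of the tested genes rose in flu against WT. OPCL1, which feeds precursors into peroxisomal oxidation, rose by log2 2.97 ± 0.15 in flu against WT (adjusted p = 8.94e-07, limma) and by 3.17 ± 0.15 in flu tAPX against tAPX (adjusted p = 3.56e-07). JMT, which makes methyl jasmonate, rose by 1.46 ± 0.19 (adjusted p = 0.000387) and 1.71 ± 0.19 (adjusted p = 9.49e-05) in the same comparisons. Both genes thus were higher with flu in either background. PDF1.2 and PDF1.2b were higher in flu than in WT and lower in flu tAPX than in tAPX. A link between these values was not tested. OPCL1 had signals of 6575 and 7067 in flu tAPX, 5836 and 6376 in flu, 753 and 730.2 in tAPX and 742 and 785 in WT.

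In the MYC2 branch, which opposes PDF1.2, MYC3 and MYC4 were measured, both relatives of MYC2. They were the 2 of 12 listed genes with a probe set of their own, and the others are not analysed here. MYC3 had signals of 1007 and 1209 in flu tAPX, 876 and 937 in flu, 527 and 381 in tAPX and 485 and 598 in WT. It rose in flu against WT (log2 0.73 ± 0.21, adjusted p = 0.0316, limma) and in flu tAPX against tAPX (1.27 ± 0.21, adjusted p = 0.0013). The first call was lost with variances that follow no trend (adjusted p = 0.0603) and without any of flu replicate 1 (0.78), flu replicate 2 (0.69), WT replicate 1 (0.59) or WT replicate 2 (0.88), and both were lost with poly-A scaling (0.78 and 0.61). MYC4 fell in flu tAPX against tAPX (-1.34 ± 0.35, adjusted p = 0.0153), a call lost without flu tAPX replicate 2 (-0.74) or tAPX replicate 1 (-1.15), and stood at -0.40 ± 0.35 in flu against WT (adjusted p = 0.443).

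In the ethylene branch, EIN3, the transcription factor that acts upstream of ERF1, was the only gene tested. Its signals were 2279 and 2581 in flu tAPX, 2118 and 2519 in flu, 1525 and 1610.2 in tAPX, and 1818 and 2204 in WT. It rose in flu tAPX against tAPX (log2 0.62 ± 0.17, adjusted p = 0.0192, limma) and stood at 0.20 ± 0.17 in flu against WT (adjusted p = 0.423). The call was lost without flu tAPX replicate 2 (0.54), tAPX replicate 1 (0.59) or tAPX replicate 2 (0.66), and the sign turned with poly-A scaling (-0.04). ERF96 did not pass the filter, and the other 19 genes of the list are not analysed here.

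On the salicylate side, 2 of 16 listed genes had a probe set of their own, and the others are not analysed here. GRX480 is a glutaredoxin that binds TGA transcription factors and can repress PDF1.2 when overexpressed. Its signals were 3262 and 1596 in flu tAPX, 2597 and 1943 in flu, 130.2 and 124 in tAPX, and 118 and 66.8 in WT. It rose by log2 4.43 ± 0.34 in flu against WT (adjusted p = 1.02e-05, limma) and by 4.01 ± 0.34 in flu tAPX against tAPX (adjusted p = 1.39e-05), with no overlap between lines with and without flu. SAG101, a partner of the immune regulator EDS1, rose in flu tAPX against tAPX (1.52 ± 0.28, adjusted p = 0.00262) and stood at 0.68 ± 0.28 in flu against WT (adjusted p = 0.112).

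Among other antimicrobial and defence proteins, 4 of 12 listed genes had a probe set of their own, and 1 of 3 tested genes passed. AT2G38870, a proteinase inhibitor of the PR-6 type, had signals of 816 and 455 in flu tAPX, 984 and 634 in flu, 304 and 402 in tAPX, and 308 and 89.6 in WT. It rose by log2 2.12 ± 0.47 in flu against WT (adjusted p = 0.00977, limma), a call lost without flu replicate 1 (1.81) or WT replicate 2 (1.31). In flu tAPX against tAPX it stood at 0.78 ± 0.47 and did not pass (adjusted p = 0.237, limma). Its interaction of -1.35 ± 0.67 did not pass either (adjusted p = 0.732). The thionin THI2.2 (-0.89 ± 0.40, adjusted p = 0.113, limma) and the osmotin-like OSM34 (1.60 ± 0.82, adjusted p = 0.161) did not pass in flu tAPX against tAPX, nor in flu against WT (adjusted p = 0.0978 and 0.565).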

How the data were processed

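Each of 8 Affymetrix ATH1 arrays has 1 column in the deposited table. The values are MAS5 signals, a linear intensity, as deposited by the authors; MAS5 is named in the submitters' processing notes, without a version. MAS5 usually brings each array to a common mean, and then all other signals fall when abundant transcripts rise; the scaling used is not stated. Precision is limited by 2 arrays per line. Signals were turned into log2(signal + 16). Of 22810 probe sets, 64 controls were left out, and those above the 40th percentile of their array on at least 2 arrays were kept (14947). One linear model of 4 line means was fitted in limma 3.58.1 (R 4.3.3) with trended moderated variances. P-values were two-sided and adjusted by Benjamini-Hochberg over all tested probe sets, with a threshold of 0.05. The fit was tested on simulated data. Log2 differences understate changes of dim probe sets.

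Gene names came from the platform's annotation, updated through NCBI gene identifiers to TAIR10.1. Of all probe sets, 13513 had 1 gene, 503 several and 8794 none. Annotated spans were available for 99.7% of tested probe sets with 1 gene.

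The members and lists were chosen with earlier results of these data known. Named were the defensins, every tested list gene that passed or was needed to account for a list, and the 5 genes of highest Pearson correlation with each defensin. Alternatives were other pseudocounts, filters and scalings, variances without a trend, the replicate number as a block, and omission of each array.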

Additional observations from a re-analysis of the deposited data

Results flagged for a closer look

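PDF1.2 met the criterion that every array of 1 response goes up and every array of the other goes down, for the response to flu (up in flu against WT, down in flu tAPX against tAPX) and for the response to the transgene (up in tAPX against WT, down in flu tAPX against flu). The difference between the responses is -2.20 on the log2 scale in either reading. PDF1.2b met it for the response to flu, with -2.73. These differences were not tested, since the genes were chosen for them. The pattern in the response to flu was found for 0.495% of the tested probe sets. For the transgene, 16.7% were higher without overlap in tAPX against WT and 13.1% were lower in flu tAPX against flu. The share with both was not counted. The PDF1.2 difference in flu tAPX against flu was -0.30 ± 0.28 (SE), about 1 SE.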

How the results depend on the processing

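Poly-A scaling moved PDF1.2 to -0.84 in flu tAPX against flu, -2.05 in flu tAPX against tAPX and -2.90 in the interaction, and PDF1.2b to -2.21 and -3.43 in the last 2. This scaling shifted the median of all tested probe sets to -0.51, -0.79 and -0.62 in these comparisons and to 0.11 in tAPX against WT. Subtracting the median of short genes gave -1.75 for the PDF1.2 interaction and 0.012 for PDF1.2b in flu tAPX against flu. Filters, variances without a trend and the block cannot change a log2 difference, nor can the omission of an array from a line outside the comparison. With 1 array left out, PDF1.2 ranged between 0.34 and 1.27 in flu against WT, 1.43 and 2.35 in tAPX against WT, and -2.66 and -1.73 in the interaction. PDF1.2b ranged between -0.75 and 0.41 in flu tAPX against flu, and LCR68 between -0.93 and 0.39 in flu against WT and -1.10 and 0.17 in flu tAPX against flu. LCR69 ranged between -0.78 and 0.29 in flu against WT and between -1.30 and 0.31 in flu tAPX against flu. EIN3 turned to -0.043 with poly-A scaling.

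Poly-A scaling called 2335 probe sets in flu against WT (65.7% higher, against 47.6% as deposited) and 8850 in flu tAPX against tAPX (14.3% higher, against 44.7%). It called 3 in tAPX against WT, 16 in flu tAPX against flu (6.25% higher) and 514 in the interaction (0.195% higher). As deposited, these counts were 3570, 5014, 1, 1 and 0 in this order. Counts with 1 array left out ranged between 1852 (without WT replicate 2) and 4663 in flu against WT, between 1 and 72 (without flu tAPX replicate 1) in flu tAPX against flu, between 2825 (without tAPX replicate 2) and 5364 in flu tAPX against tAPX, and between 0 and 185 (without flu tAPX replicate 1) in the interaction. The titles number the replicates, but deviations of same-numbered arrays correlated at -0.08 to 0.35 between lines and exceeded 0.1 in 2 of 6 pairs of lines, so the numbers were not taken as pairs. The replicate block left the log2 differences of the defensins as they were, called 2 probe sets in tAPX against WT, and called LCR69 as given above. With it, the SE in flu against WT was 0.27 for PDF1.2, 0.38 for PDF1.2b, 0.35 for LCR68 and 0.45 for LCR69. Without the block these errors were 0.28, 0.43, 0.52 and 0.55. The cause of these changes was not tested. A fit with 1 array in a line takes its spread from the other lines.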
